A study of Homo sapiens with 12 samples.

Results

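The 51 genes described here act in G2 phase and mitosis, in the spindle, the kinetochore, the cyclin B kinase and the machinery of cell division. They were chosen by gene name from the 57134 genes of the deposited table, and all 51 have a row in it. The cells are HCT116, a cell line of human colon carcinoma, and the libraries were prepared with MATQ-seq, a protocol for total RNA from very small inputs. The question of the study was how libraries with and without scDASH compare. In scDASH, Cas9 cuts library molecules that derive from ribosomal RNA (rRNA), so that fewer of them are sequenced. DASHed libraries were made from 4 single cells and from 2 mini-bulk inputs. Untreated libraries, which had no depletion, were likewise made from 4 single cells and from 2 mini-bulk inputs. All groups share the cell line and the protocol, and the single cells were sorted by FACS. The labels give no sort gate, no cell cycle stage, no cell number for a mini-bulk input and no separate cultures.

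Entry into mitosis is driven by CDK1 bound to cyclin A or cyclin B, which CDC25 phosphatases switch on. Microtubules then capture chromosomes at kinetochores, the spindle checkpoint holds the anaphase-promoting complex (APC/C) until every chromosome is attached, and CDC20 and UBE2C carry out the ubiquitination that starts anaphase. Most of these genes are transcribed in late S phase and G2 under the MuvB complex with B-MYB and FOXM1, and their mRNAs decline after division. The cells of a growing line are in different phases at any time.

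The libraries differed strongly in depth. DASHed mini-bulk libraries held 837614 and 1087711 counts and untreated ones 5803180 and 6026584. The DASHed cells held 1018874 to 1573651 counts and the untreated cells 5545355 to 6008358. rRNA took 20.5 to 24.4% of the counts of DASHed and 45.2 to 52.9% of those of untreated libraries. Levels below are counts scaled to the same total of counts outside rRNA in every library (CPM outside rRNA), and the 3 counts used as a floor for a value of 0 correspond to 2.41 to 3.71 in a DASHed cell and 1.05 to 1.12 in an untreated cell. Intervals and floors cover counting error only, since amplified reads are not independent molecules and no label mentions molecular identifiers. The DASHed and the untreated single-cell library with a given number resembled each other far more than libraries with other numbers did (the correlation of their deviations was 0.915 to 0.923 over 9360 genes). Whether they came from 1 cell is not labelled. In what follows "cell 1" stands for the pair of libraries with the number 1, and so on for the other numbers, and the libraries of a number may not be observations of different cells. No test was made on the single cells, because a library of this kind holds RNA of 1 cell.

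The regulatory sequence that these genes share was looked up in the RefSeq promoter table (GRCh38.p14, 250 bases before to 50 bases after each annotated start), which held 44 of the 51 genes. A CHR element (searched as TTTGAA on either strand), to which the MuvB complex binds, stood in at least 1 window of 32 of the 44 genes (72.7%), against 18.2% of the 27305 genes in the table. A CCAAT box (CCAAT on either strand), the site of the factor NF-Y, stood in 37 of the 44 (84.1%), against 39.7%. Both stood in the same window for 29 of the 44 (65.9%), against 7.26%. A match describes the letters of a window and is not evidence of binding. The promoters of CCNB2 (cyclin B2), PLK1 (polo-like kinase 1) and CDC25C (the phosphatase that activates CDK1) are printed because these genes were highest in different cells, for CDC25C at 1 of its 4 annotated starts. They are written 5′ to 3′ on the strand of the gene, with the CHR element and CCAAT boxes of either strand in capitals.
CCNB2 (chr15:59104896-59105195, plus strand): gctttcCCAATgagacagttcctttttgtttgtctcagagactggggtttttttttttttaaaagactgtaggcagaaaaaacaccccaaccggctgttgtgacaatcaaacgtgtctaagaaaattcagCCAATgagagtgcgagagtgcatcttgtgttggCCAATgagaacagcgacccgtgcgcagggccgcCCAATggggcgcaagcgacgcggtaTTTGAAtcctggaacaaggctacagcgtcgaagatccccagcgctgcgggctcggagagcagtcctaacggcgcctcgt
PLK1 (chr16:23678639-23678938, plus strand): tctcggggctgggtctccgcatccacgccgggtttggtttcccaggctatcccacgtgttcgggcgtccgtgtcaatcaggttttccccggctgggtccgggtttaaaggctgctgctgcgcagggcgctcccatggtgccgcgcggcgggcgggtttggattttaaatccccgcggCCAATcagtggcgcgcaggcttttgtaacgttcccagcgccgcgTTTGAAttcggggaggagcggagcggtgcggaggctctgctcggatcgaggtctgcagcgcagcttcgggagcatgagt
CDC25C (chr5:138331755-138332054, minus strand): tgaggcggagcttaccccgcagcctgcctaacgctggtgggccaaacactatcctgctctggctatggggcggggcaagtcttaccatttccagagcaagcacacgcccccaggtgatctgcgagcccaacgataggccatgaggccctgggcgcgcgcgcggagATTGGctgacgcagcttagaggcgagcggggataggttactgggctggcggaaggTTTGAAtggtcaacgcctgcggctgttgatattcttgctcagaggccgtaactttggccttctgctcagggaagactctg
In each of these 3 windows the CHR element lies just before the start, with its first base at position -29 in CCNB2 and PLK1 and at -30 in CDC25C. CCNB2 holds 4 CCAAT boxes in this window, and PLK1 and CDC25C hold 1 each. From another annotated start of CDC25C (chr5:138331828-138332127) the window holds 3 CCAAT boxes and the CHR element begins at position 44 after the start. Its windows at chr5:138338306-138338605 and chr5:138338292-138338591 hold neither a CHR element nor a CCAAT box. The presence, counts and positions of these motifs thus depend on the start chosen.

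The summed level of the 51 genes differed between the cells, and both libraries of each number put the cells in the same order. Cell 2 was highest, at 7001 CPM outside rRNA in its DASHed library (95% Poisson interval 6820 to 7185) and 5959 (5867 to 6053) in its untreated library. Cell 3 followed at 6096 (5958 to 6236) in the DASHed and 4490 (4412 to 4569) in the untreated library, and cell 4 at 4986 (4863 to 5112) in the DASHed and 3668 (3598 to 3739) in the untreated library. Cell 1 was lowest, at 3125 (3016 to 3236) in the DASHed and 1937 (1885 to 1989) in the untreated library. The intervals of the 4 cells did not overlap within either treatment. The highest cell stood 2.24-fold (2.14 to 2.34) above the lowest in the DASHed and 3.08-fold (2.98 to 3.18) above it in the untreated libraries. Without cell 1 these ratios were 1.40 and 1.63. The order 2, 3, 4, 1 also held when levels were scaled to all counts, and with mitochondrial genes and 4 lincRNA genes inside 18S rRNA left out of the total. It held without the 3 most abundant members (MKI67, CDC25B and TPX2) too, but some cells were then close. Cells 2 and 3 had 3409 and 3370 in the DASHed libraries, and cells 3 and 4 had 2196 and 2096 in the untreated libraries. The distance between these cells thus rests largely on few genes.

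MKI67, the coat protein of mitotic chromosomes known as Ki-67, had 25.8 to 40.7% of the summed counts in the DASHed and 32.0 to 47.4% in the untreated cells. Without it the sums were 5191, 4127, 3500 and 1854 CPM outside rRNA in the DASHed libraries of cells 2, 3, 4 and 1, and 4017, 2648, 2493 and 1019 in the untreated ones. Levels of different genes can be compared per kilobase of the longest transcript, and their order depended on the treatment. In the DASHed libraries CDC25B had the highest mean level, 149.2 CPM outside rRNA per kilobase, followed by CDC20 with 121.5, AURKB with 120.8 and MKI67 with 118.5. In the untreated libraries MKI67 was highest with 99.6, followed by TPX2 with 78.0, CDC20 with 40.3 and CDC25B with 40.3. KIF20B was lowest in both treatments. The median member separated cell 1 from the others but not those 3 from each other. Relative to its mean over the 4 cells, the median member (38 with enough counts in DASHed, 48 in untreated libraries) stood at 0.309 in the DASHed and 0.332 in the untreated library of cell 1. In cells 2, 3 and 4 it stood at 1.11, 0.943 and 1.04 in the DASHed and at 1.25, 1.07 and 1.06 in the untreated libraries.

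**Figure D1:**
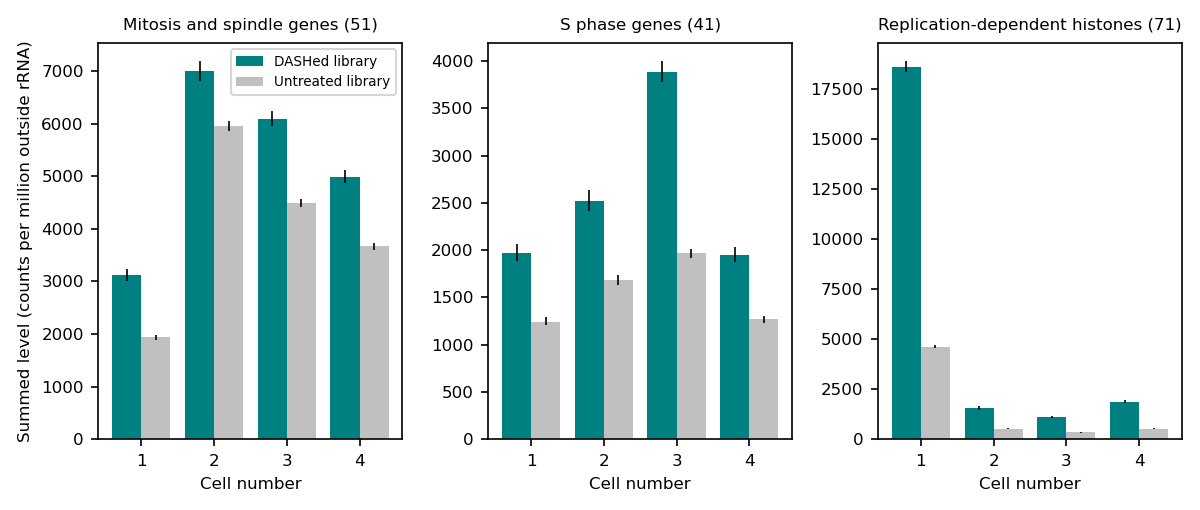
Summed levels of the 51 mitosis and spindle genes, of 41 other S phase genes and of 71 replication-dependent histone genes in each single-cell library, in CPM outside rRNA; each panel has its own axis from 0, and error bars are 95% Poisson intervals of the summed counts. Cell 1 is lowest for the mitosis genes, at 3125 (DASHed) and 1937 (untreated), and stands far above the others for the histones, at 18630 (DASHed) and 4626 (untreated).

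Markers of the preceding cell cycle phase were distributed differently over the same cells. The 71 replication-dependent histone genes, whose mRNAs lack a poly(A) tail and accumulate during DNA replication, summed to 18630 CPM outside rRNA in the DASHed library of cell 1, against 1093 to 1857 in the other DASHed cells. In the untreated library of cell 1 they summed to 4626, against 336.9 to 526.8 in the other untreated cells. A list of 41 S phase genes (replication and repair factors) was highest in cell 3, at 3886 in the DASHed and 1965 in the untreated library. Its lowest values were 1949 in the DASHed library of cell 4 and 1244 in the untreated library of cell 1. Cell 1 thus combined the lowest sum of mitosis genes with the highest sum of histone genes in both libraries.

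**Figure D2:**
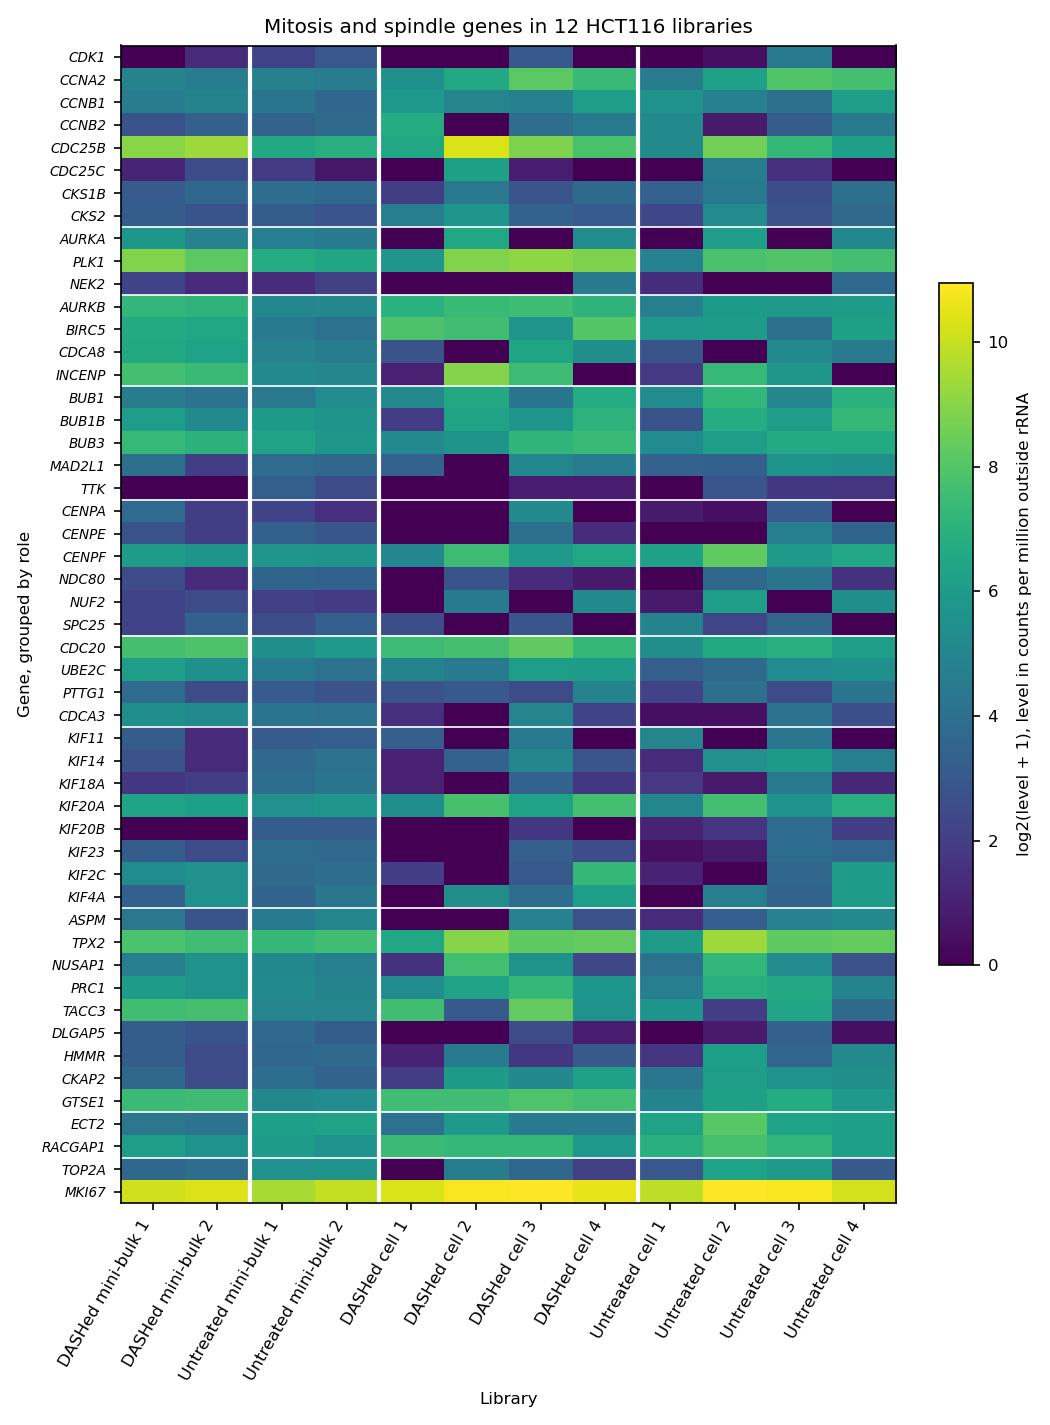
Level of each of the 51 genes in the 12 libraries, as log2(level + 1) with levels in CPM outside rRNA; rows are grouped by role, and white lines separate roles and library groups. MKI67 is bright throughout, whereas many kinetochore and kinesin genes are dark (no counts) in some cells and present in others. For these genes 20 positions are at 0 in the DASHed cells and 10 in the untreated cells.

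How many members were seen followed the library. Counts were found for 36, 34, 48 and 44 of the 51 genes in the DASHed libraries of cells 1 to 4 and for 43, 46, 48 and 45 in the untreated ones. The mini-bulk libraries held 48 and 49 after DASH and 51 and 51 without it. Over the 204 combinations of gene and cell, 162 had counts in both libraries, 22 in neither, 20 in the untreated library alone and 0 in the DASHed library alone. The same division was not made over all genes, so it does not show a trait of the members. The untreated cells also had more counts outside rRNA (2673250 to 2861260, against 809660 to 1246195 in DASHed cells), and the part of this depth in the 20 was not tested. The 22 gaps shared by both libraries fell on 16 genes. AURKA, for example, had no count in either library of cells 1 and 3, and INCENP none in either library of cell 4. At these depths such a value sets a limit of 3 counts and does not show absence.

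Of the 45 members with at least 10 counts on average over the 8 single-cell libraries, 32 (71.1%) had their highest level in the same cell in both treatments, against 79.4% of all 9356 genes with that mean. Cell 2 held 13 of them (28.9% of the 45, against 22.7% of all genes), cell 3 held 12 (26.7%, against 18.3%), cell 4 held 6 (13.3%, against 21.5%) and cell 1 held 1 (2.22%, against 16.9%). Cell 1 was thus rarely the highest cell for these genes, and the shares of the other cells differed less from those of all genes. For each cell the genes with the largest ratio to the median of the other cells in both libraries are described next, with further members. A gene chosen in this way can be higher still in another cell.

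In cell 1 CCNB2 was the 1 member with its highest level in both libraries. CCNB2, the second B-type cyclin, had 109.7 CPM outside rRNA in the DASHed library of cell 1, 0, 13.9 and 21.7 in those of cells 2, 3 and 4, and 36.3, 0.75, 8.48 and 20.6 in the untreated libraries of cells 1 to 4. Cell 1 was 7.89-fold above the median of the other cells in the DASHed and 4.28-fold above it in the untreated libraries. TACC3, a spindle protein that binds clathrin and stabilises kinetochore fibres, had 189.6, 7.41, 318.4 and 46.5 in the DASHed and 49.3, 2.99, 88.3 and 12.6 in the untreated libraries of cells 1 to 4. It was high in cells 1 and 3 and low in cell 2, where the summed level of the group was highest. CCNB1, the main mitotic cyclin, had 56.9, 30.9, 27.0 and 69.0 in the DASHed and 47.1, 27.3, 15.5 and 70.2 in the untreated libraries. Cells 1 and 4 exceeded cells 2 and 3, so the level of CCNB1 did not follow the summed level of the group. The members without counts in either library of cell 1 were CDK1, CDC25C, AURKA, CENPE, NDC80, TTK, KIF4A and DLGAP5.

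Cell 2 was the highest cell in both libraries for 13 genes, among them CDC25B, CDC25C, AURKA, INCENP, TPX2 and CENPF. CDC25B, the phosphatase that starts CDK1 activation at the centrosome, had 92.8, 1292, 459.2 and 223.9 CPM outside rRNA in the DASHed libraries of cells 1 to 4 and 35.9, 393.5, 156.5 and 72.3 in the untreated ones. CDC25C had 72.9 in the DASHed and 23.9 in the untreated library of cell 2 and at most 1.77 in any library of the other cells. AURKA, the centrosomal Aurora kinase, had 91.4 in the DASHed and 69.2 in the untreated library of cell 2, 37.7 in the DASHed and 33.7 in the untreated library of cell 4, and no counts in cells 1 and 3. These 3 genes were highest in cell 2 in both libraries, although AURKA is 1 of 10 members whose reads can be shared with near-copies or overlapping genes and whose values are uncertain. INCENP, the scaffold of the chromosomal passenger complex, had 1.0, 486.6, 179.3 and 0 in the DASHed and 2.54, 160.9, 54.7 and 0 in the untreated libraries of cells 1 to 4. TPX2, which activates AURKA on spindle microtubules, had 89.8, 490.3, 297.9 and 315.4 in the DASHed and 65.6, 654.6, 295.3 and 324.3 in the untreated libraries. CENPF, a kinetochore protein that accumulates in G2, had 177.9 in the DASHed and 304.9 in the untreated library of cell 2, against at most 91.7 in the other DASHed and 90.2 in the other untreated cells. The same cell had no counts in either library for CDCA8, CENPE, KIF11, KIF2C and NEK2.

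Cell 3 was the cell in which most members were seen, 48 in each library. It also had the most genes of any kind with at least 10 counts over both of its libraries, 9620, against 7820 to 9442 in the other cells. The number of members seen is therefore not particular to these genes. CDCA3, a trigger of mitotic entry that takes part in the degradation of WEE1, had 30.3 CPM outside rRNA in the DASHed and 17.0 in the untreated library of cell 3, against at most 3.62 in the other DASHed and 5.41 in the other untreated cells. CCNA2 (cyclin A2) had 43.9, 95.1, 288.9 and 166.9 in the DASHed and 23.9, 76.3, 253.2 and 201.3 in the untreated libraries of cells 1 to 4. CDK1 itself had 7.37 in the DASHed and 21.2 in the untreated library of cell 3, from 9 and 60 counts, and at most 1 count in any other single-cell library. CENPA, the histone H3 variant of centromeres, had 35.2 in the DASHed and 7.77 in the untreated library of cell 3, against 0 in the other DASHed cells and at most 0.73 in the other untreated ones. Cell 3 was thus the highest cell for the cyclin A gene, for CDK1 and for the centromeric histone. KIF11 (Eg5), the kinesin that separates the spindle poles, had 8.98, 0, 22.3 and 0 in the DASHed and 30.1, 0, 18.7 and 0 in the untreated libraries of cells 1 to 4. The treatments disagree on whether cell 1 or cell 3 was higher for it, and both have it in cells 1 and 3 alone. PLK1 was highest in cell 3, at 541.8 in the DASHed and 249.0 in the untreated library, with cells 2 and 4 close to it at 461.1 and 456.0 in the DASHed and 225.4 and 201.9 in the untreated libraries.

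In cell 4 KIF2C had the largest ratio to the median of the other cells. KIF2C (MCAK), which depolymerises microtubules at centromeres, had 2.99, 0, 7.37 and 154.9 CPM outside rRNA in the DASHed and 1.09, 0, 11.1 and 65.4 in the untreated libraries of cells 1 to 4. NEK2, a kinase of centrosome separation, had 21.7 in the DASHed and 12.5 in the untreated library of cell 4. It had 0 in the other DASHed cells and at most 1.72 in the other untreated ones. NEK2 fell below the mean of 10 counts used above and had at least 10 counts in cell 4 alone, and its values are uncertain because of near-copies. NUF2, a subunit of the microtubule-binding NDC80 complex, had 36.9 in the DASHed and 42.6 in the untreated library of cell 4. In cell 2 it had 22.2 in the DASHed and 66.6 in the untreated library, so the treatments put it highest in different cells. PTTG1, securin, had 28.9 in the DASHed and 17.5 in the untreated library of cell 4, against at most 7.41 in the other DASHed and 15.3 in the other untreated cells. CCNB1 and BIRC5 (survivin) were also highest in cell 4 in both libraries, BIRC5 with 260.0 in the DASHed and 73.0 in the untreated one. BIRC5 in the other cells lay between 50.7 and 237.4 in DASHed and between 15.5 and 64.3 in untreated libraries, so cell 4 was close to cells 1 and 2 for it.

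**Figure D3:**
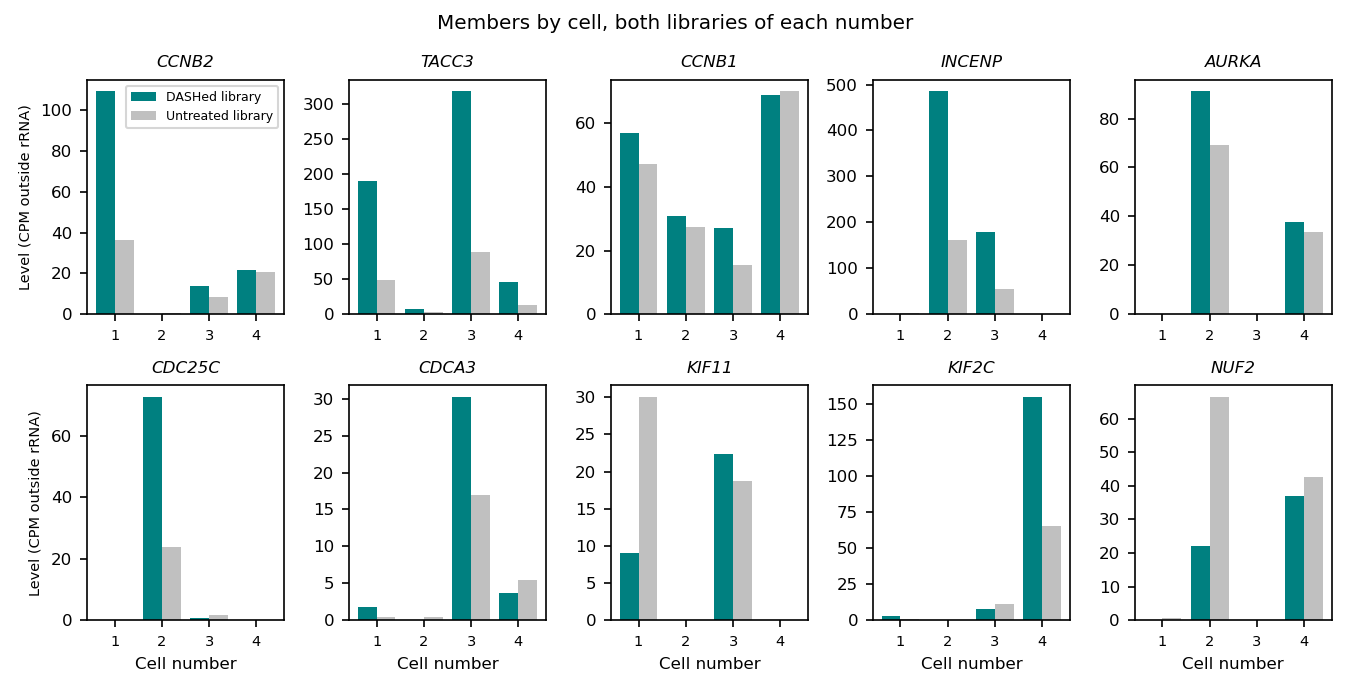
Level of the 10 genes chosen for the largest ratio of a cell to the median of the other cells. Levels are in CPM outside rRNA, in the DASHed (teal) and untreated (grey) library of each cell number. Each panel has its own axis from 0. CCNB2 peaks in cell 1, CDC25C in cell 2, CDCA3 in cell 3 and KIF2C in cell 4 in both libraries, whereas KIF11 and NUF2 peak in different cells in the 2 libraries.

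In mini-bulk, DASHed libraries were compared with untreated ones by the quasi-likelihood test of edgeR with Benjamini-Hochberg adjustment over all 10083 genes tested, at a threshold of 0.05. Values in this comparison are normalised counts on the scale of the TMM factors (TMM CPM), which sets the bulk of genes equal between libraries. As no separate cultures are named, p-values measure the spread between these libraries alone, which may be technical. A lower value in a mini-bulk library can stand for fewer cells that hold an mRNA or for less of it per cell, and these cannot be told apart. Of the 51 genes, 45 passed the filter on low counts, and the 6 that did not were CDK1, CDC25C, NEK2, TTK, CENPA and NUF2. A total of 23 were lower in DASHed libraries (51.1% of the 45, against 19.8% of all genes tested), 6 were higher (13.3%, against 9.84%) and 16 did not pass. The median log2 fold change was -1.30 for the 45 genes and 0.03 for all genes.

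These counts depend on the scaling and on the GC content of the transcripts. Scaled to all counts, 19 members were higher and 4 lower (6691 and 143 of all genes, with the median of all genes at 2.03 and that of the members at 0.72). Scaled to the counts outside rRNA, 14 were higher and 5 lower (5495 and 382 of all genes, medians 1.5 and 0.18), so the members lay below the typical gene on each scale. With a correction for GC content in each library, 3 of the 45 passed (6.67%, against 4.2% of all genes), ECT2, TOP2A and TPX2. Without untreated library 1 the members that passed numbered 13, and without untreated library 2 they numbered 17, of 35 and 34 tested.

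Among CDK1, its cyclins, its phosphatases and the CKS subunits, 6 of 8 were tested, 1 was higher, 3 were lower and 2 did not pass. CDC25B had 196.2 and 244.0 TMM CPM in DASHed and 113.2 and 112.4 in untreated libraries. Its log2 fold change was 0.96 (SE 0.17, adjusted p = 0.00437 in edgeR), and the groups did not overlap. CCNB2 had 2.36 and 3.44 in DASHed and 12 and 12.7 in untreated libraries and fell by 2.09 (SE 0.53, adjusted p = 0.0186). CCNA2 had 11.3 and 8.61 in DASHed against 31.8 and 23.6 in untreated libraries (log2 fold change -1.46, SE 0.36, adjusted p = 0.0165), and CKS1B, a CDK1-binding subunit with pseudogenes and uncertain values, had 3.30 and 4.59 in DASHed against 16.8 and 12.4 in untreated libraries (-1.89, SE 0.49, adjusted p = 0.0205). With the GC correction neither CDC25B (0.25) nor CCNA2 (-0.19) nor CCNB2 (-1.15) passed. CCNB1 had 9.43 and 10.9 in DASHed and 20.9 and 11.2 in untreated libraries and did not pass (adjusted p = 0.281), nor did CKS2 (0.0999). CDK1, not tested, had 0 and 1 count in DASHed and 11 and 22 counts in untreated libraries.

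The chromosomal passenger complex corrects faulty attachments and guides cytokinesis. Of its 4 tested genes 2 were higher and 0 lower. They had 51.4 to 59.6% GC in their longest transcript, and of all genes with at least 50% GC 18.8% were higher and 0.989% lower. AURKB, the kinase of the complex, had 58.5 and 52.2 TMM CPM in DASHed and 36.3 and 32.0 in untreated libraries (log2 fold change 0.70, SE 0.22, adjusted p = 0.0406). INCENP had 78.7 and 62.6 in DASHed and 43.0 and 31.7 in untreated libraries (0.93, SE 0.24, adjusted p = 0.0192). BIRC5 had 40.1 and 34.4 in DASHed against 25 and 15.8 in untreated libraries, and CDCA8 had 38.7 and 30.4 in DASHed against 32.1 and 23.9 in untreated libraries, and neither passed (adjusted p = 0.0583 and 0.417). Of the other kinases, PLK1 had 182.0 and 108.5 in DASHed and 123.3 and 85.7 in untreated libraries (adjusted p = 0.191). AURKA had 21.2 and 10.3 in DASHed and 29.2 and 22.4 in untreated libraries (adjusted p = 0.204). Both are uncertain because of overlapping genes or near-copies, and the ranges overlapped for PLK1 alone.

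The spindle checkpoint held 2 genes that were lower and none that was higher among 4 tested. BUB1, the checkpoint kinase, had 9.43 and 6.31 TMM CPM in DASHed and 23.2 and 38.5 in untreated libraries (log2 fold change -1.96, SE 0.41, adjusted p = 0.00828). BUB1B, BubR1, whose exons overlap a readthrough gene, had 26.4 and 13.8 in DASHed against 71.4 and 49.7 in untreated libraries (-1.57, SE 0.33, adjusted p = 0.00886). Neither pair of groups overlapped. BUB3 had 62.7 and 48.2 in DASHed and 94.9 and 53.1 in untreated libraries, which overlap (adjusted p = 0.301), and MAD2L1 did not pass (adjusted p = 0.0633). TTK, the kinase MPS1 at the top of the checkpoint, had no count in either DASHed library against 28 and 15 in the untreated ones. With 3 counts as the floor of the group it was at least 9.39-fold lower after DASH on the TMM scale, 3.38-fold when scaled to the counts outside rRNA and 2.33-fold when scaled to all counts, and it was not tested by edgeR because it did not pass the filter.

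At the kinetochore 3 of 4 tested genes were lower. NDC80, the microtubule-binding subunit, had 1.89 and 0.57 TMM CPM in DASHed and 12.3 and 9.32 in untreated libraries (log2 fold change -3.03, SE 0.69, adjusted p = 0.0122). CENPE, a kinesin of the kinetochore, had 2.36 and 1.15 in DASHed and 10.8 and 6.52 in untreated libraries (-2.24, SE 0.68, adjusted p = 0.0357). CENPF had 24.5 and 18.9 in DASHed against 59.4 and 48.4 in untreated libraries (-1.30, SE 0.26, adjusted p = 0.00694). SPC25 did not pass, and NUF2, not tested, had 3 and 3 counts in DASHed and 10 and 9 in untreated libraries. The 3 lower genes were separate between the groups, but with the GC correction the log2 fold change of CENPF was 0.12. Of the anaphase genes, CDC20, the activator of the APC/C, was higher, at 82.5 and 89.0 in DASHed and 50.1 and 58.1 in untreated libraries (0.66, SE 0.19, adjusted p = 0.0308). Part of its sequence is shared with a pseudogene. UBE2C, the E2 enzyme of the APC/C, had 27.4 and 16.6 in DASHed against 26.2 and 15.5 in untreated libraries (adjusted p = 0.862), and PTTG1 and CDCA3 did not pass either.

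Of the 8 kinesins 5 were lower, among them the members with the largest differences. KIF20B had no count in either DASHed library and 25.7 and 26.6 in the untreated ones (adjusted p = 0.00432). With 3 counts as the floor of the group it was at least 11.4-fold lower on the TMM scale, 4.12-fold when scaled to the counts outside rRNA and 2.84-fold when scaled to all counts. KIF18A, which dampens chromosome movements at the plate, had 0.94 and 1.15 TMM CPM in DASHed and 17.2 and 17.7 in untreated libraries (log2 fold change -4.01, SE 0.57, adjusted p = 0.00168). KIF14 had 2.36 and 0.57 in DASHed against 14.2 and 16.5 in untreated libraries (-3.28, SE 0.63, adjusted p = 0.00588), and KIF23, the motor of the central spindle, had 3.30 and 1.72 in DASHed against 15.7 and 12.1 in untreated libraries (-2.41, SE 0.55, adjusted p = 0.0122). In these 4 genes each DASHed library lay far below each untreated one. KIF20A, another central spindle kinesin, was lower by less, at 32.5 and 27.0 in DASHed and 52.3 and 50.3 in untreated libraries (-0.78, SE 0.23, adjusted p = 0.0329). KIF11 and KIF4A did not pass, and KIF2C had 15.1 and 17.2 in DASHed and 14.6 and 14.3 in untreated libraries (adjusted p = 0.75).

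Of the 9 spindle and microtubule-associated genes 6 were lower and 2 higher. TACC3 rose most of all members, with 73.6 and 78.6 TMM CPM in DASHed and 35.1 and 29.8 in untreated libraries (log2 fold change 1.23, SE 0.21, adjusted p = 0.00384). GTSE1, a microtubule protein that inhibits KIF2C, had 68.8 and 69.5 in DASHed and 39.2 and 38.2 in untreated libraries (0.84, SE 0.20, adjusted p = 0.0148). TPX2, by contrast, had 88.2 and 71.8 in DASHed and 182.8 and 187.2 in untreated libraries (-1.21, SE 0.17, adjusted p = 0.00173). ASPM, a protein of the spindle poles, had 7.54 and 2.30 in DASHed against 24.3 and 29.8 in untreated libraries (-2.41, SE 0.49, adjusted p = 0.00774). The microtubule-associated genes HMMR, CKAP2, DLGAP5 and NUSAP1 were lower too, with log2 fold changes of -2.33, -1.99, -1.97 and -1.26 in that order and adjusted p-values between 0.0138 and 0.0384. NUSAP1 shares most of its exonic bases with an overlapping gene. PRC1, which bundles the central spindle, was uncertain for the same reason and did not pass, with 25.5 and 17.8 in DASHed against 42.2 and 27.9 in untreated libraries.

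The remaining 4 genes were all lower. ECT2, the exchange factor that activates RhoA for cytokinesis, had 7.54 and 6.31 TMM CPM in DASHed and 81.8 and 76.4 in untreated libraries (log2 fold change -3.50, SE 0.27, adjusted p = 7.57e-05). Its partner RACGAP1 had 25.9 and 17.8 in DASHed and 72.5 and 47.8 in untreated libraries (-1.44, SE 0.30, adjusted p = 0.00817). TOP2A, the topoisomerase that untangles sister chromatids, had 4.72 and 5.17 in DASHed and 53.1 and 47.2 in untreated libraries (-3.33, SE 0.32, adjusted p = 0.000236). MKI67 had 448.0 and 498.3 in DASHed and 854.4 and 954.2 in untreated libraries (-0.94, SE 0.14, adjusted p = 0.00225). With MKI67 and TOP2A the most used proliferation markers were lower in DASHed libraries on this scale, by 1.91-fold and 10.1-fold, while MKI67 was higher by 1.07 on the log2 scale when scaled to all counts, where the median gene was higher by 2.03.

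**Figure D4:**
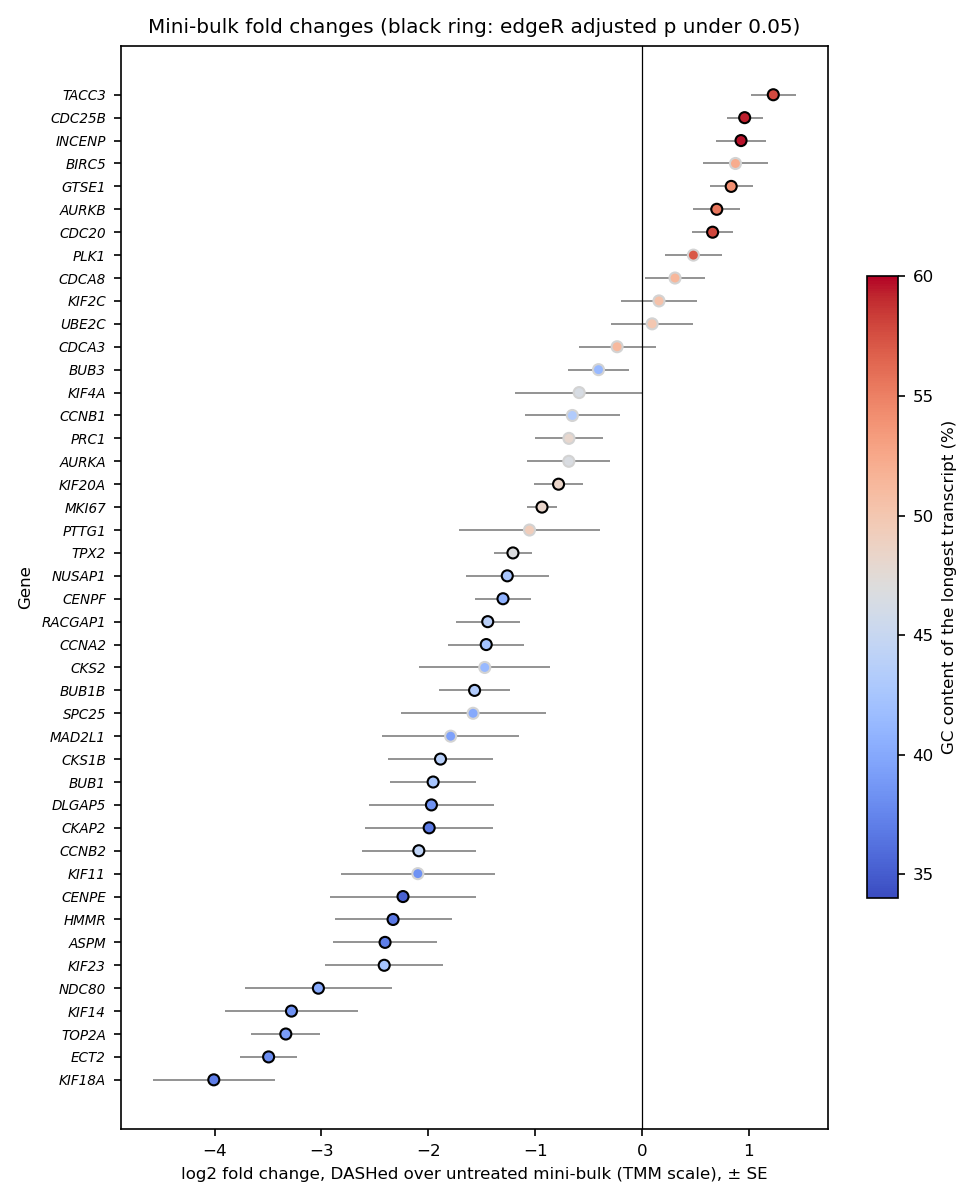
Log2 fold change of each tested gene in mini-bulk, DASHed over untreated on the TMM scale, with its standard error; colour gives the GC content of the longest transcript and a black ring an edgeR adjusted p under 0.05. KIF20B is left out because it has no count in DASHed libraries. The genes run along a gradient of GC content, with TACC3 (57.8% GC) at 1.23 and KIF18A (37.0% GC) at -4.01.

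GC content of the transcripts moved with the mini-bulk fold changes. The 6 members that were higher had 54.1 to 59.6% GC in their longest transcript, and the 23 that were lower had 34.2 to 48.4%. The 16 that did not pass lay between, at 38.3 to 57.1%. The ranges of the higher and lower members did not overlap. Across the 45 genes Spearman's rho between log2 fold change and GC content was 0.90, and across all tested genes it was 0.79. Genes share library and composition, so both are descriptions. Of 12 tested members with at least 50% GC, 6 were higher and 0 lower, with a median log2 fold change of 0.68, against 0.66 for all genes of that GC content. That is 50% higher, against 18.8% of all such genes. Of 12 tested members under 40% GC, 10 were lower and 0 higher, with a median of -2.37 against -1.92 for all such genes. That is 83.3% lower, against 58.3% of all such genes. Between 40 and 45% GC 10 of 14 were lower (71.4%, against 44.0% of all such genes, with medians of -1.52 and -1.35). Between 45 and 50% 3 of 7 were lower (42.9%, against 19.5%, with medians of -0.78 and -0.42). At 50% GC and above 0.989% of all genes were lower. Both the members and all genes ran from higher to lower as GC content decreased. The share of members that were higher (50% GC and above) or lower (the other 3 ranges) exceeded that of all genes of like GC content. Whether a gene passes also depends on its count level, and members and other genes were not matched for it. With the GC correction 3 of the 45 members passed (6.67%, against 4.2% of all genes). The length of the longest transcript was less tightly related to the fold change (rho -0.32 over 45 genes).

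The difference in composition can be read from the transcripts. The stretches below are the central 120 bases of the longest GENCODE v29 coding sequence of 3 members that were lower (KIF20B, KIF18A and ECT2) and 3 that were higher (INCENP, CDC25B and TACC3), 5′ to 3′, with every G and C in capitals.
KIF20B: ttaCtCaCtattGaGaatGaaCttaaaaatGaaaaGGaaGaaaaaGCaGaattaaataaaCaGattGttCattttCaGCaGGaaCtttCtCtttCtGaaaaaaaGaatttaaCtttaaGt
KIF18A: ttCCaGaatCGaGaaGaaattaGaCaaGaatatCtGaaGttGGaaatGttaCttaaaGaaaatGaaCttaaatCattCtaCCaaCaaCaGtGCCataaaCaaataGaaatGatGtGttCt
ECT2: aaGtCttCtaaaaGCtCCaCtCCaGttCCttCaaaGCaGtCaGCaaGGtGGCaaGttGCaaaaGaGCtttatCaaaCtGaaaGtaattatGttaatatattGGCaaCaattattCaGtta
INCENP: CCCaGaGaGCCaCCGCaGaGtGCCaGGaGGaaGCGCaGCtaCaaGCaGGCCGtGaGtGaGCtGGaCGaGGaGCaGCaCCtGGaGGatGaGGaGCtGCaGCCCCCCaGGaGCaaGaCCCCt
CDC25B: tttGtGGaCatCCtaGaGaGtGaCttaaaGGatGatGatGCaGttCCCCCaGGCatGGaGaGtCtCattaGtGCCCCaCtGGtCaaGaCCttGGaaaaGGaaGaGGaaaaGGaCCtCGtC
TACC3: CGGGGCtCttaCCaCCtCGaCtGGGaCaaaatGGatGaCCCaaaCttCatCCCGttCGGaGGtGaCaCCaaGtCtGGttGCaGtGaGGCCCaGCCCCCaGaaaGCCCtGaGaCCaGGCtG
The stretches of the first 3 hold 25.8, 30.0 and 35.0% GC and those of the last 3 hold 65.8, 49.2 and 59.2%. Over their whole coding sequences the values were 34.7, 37.6 and 38.5% for KIF20B, KIF18A and ECT2 and 61.5, 60.3 and 58.0% for INCENP, CDC25B and TACC3.

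**Figure D5:**
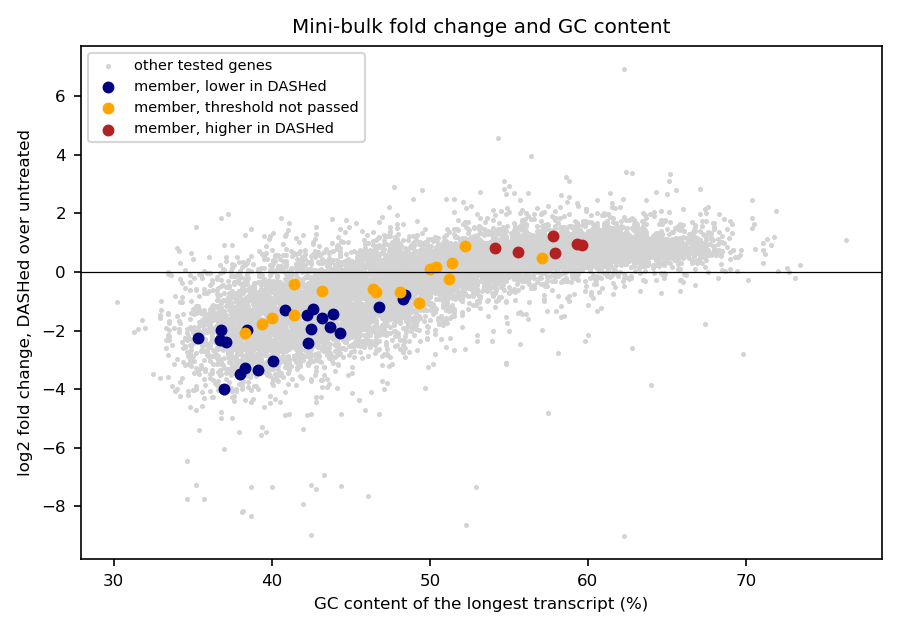
Mini-bulk log2 fold change, DASHed over untreated, against the GC content of the longest transcript for all tested genes (grey) and for the tested members, coloured by the edgeR call; KIF20B is left out. The members lie inside the grey cloud, the lower ones left of 50% GC and the 6 higher ones right of it.

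The same comparison was made in the single cells, without a test. In the summed cells the median gene (13469 genes with at least 20 counts) had a log2 ratio of DASHed to untreated level of 0.66, a ratio of 1.58, and the median member had 0.15, so the members lay 0.51 below the median gene. Within cells 1 to 4 the members lay 0.33, 0.49, 0.66 and 0.55 below the median gene of the same number. Taking each gene's mean over the pairs first gave a difference of -0.24, and without cell 4 the difference in the summed cells was -0.82. With no minimum count for the genes compared it was -0.002, so the difference depends on that minimum. Relative to the median gene, 11 of the 27 members that could be compared in every cell were lower in the DASHed library in all 4 (40.7%, against 29.8% of 4416 genes), and 7 were higher in all 4 (25.9%, against 36.1%). The 11 were CCNB1, CKS1B, BUB1, BUB1B, MAD2L1, CENPF, TPX2, ECT2, RACGAP1, TOP2A and MKI67, and the 7 were CDC25B, PLK1, AURKB, BIRC5, CDC20, TACC3 and GTSE1. ECT2, with 16.3, 59.3, 22.1 and 21.7 CPM outside rRNA in the DASHed and 78.5, 276.8, 80.3 and 72.3 in the untreated libraries of cells 1 to 4, was lower in each DASHed library also without this adjustment. TACC3, whose values per cell are given above, was higher in each. Over the 45 genes tested in mini-bulk, the mini-bulk log2 fold change and the single-cell log2 ratio had a Spearman's rho of 0.90, against 0.81 for all 9447 genes with both values. The 2 inputs have no library in common but share the treatment, and the correlation is across genes, which are not independent. The single-cell log2 ratio also moved with GC content, with a Spearman's rho of 0.85 over the 51 members and 0.7 over 13466 genes. The 11 members that were lower in all 4 cells had 38.0 to 48.3% GC in their longest transcript. The 7 that were higher had 52.2 to 59.3%. The part of GC content in the likeness of the 2 inputs was not tested.

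The summed level of the group shows how far the scale decides its direction. In mini-bulk it was 4443 ± 80.5 CPM outside rRNA in DASHed and 2292 ± 156 in untreated libraries (SD, n = 2 each). On the TMM scale it was 1700 ± 72.8 in DASHed and 2452 ± 114.5 in untreated libraries. A group of 4 lincRNA genes that lie inside 18S rRNA, and count as outside rRNA here, took 16.2 and 18.6% of the counts of DASHed and 36.9 and 37.4% of those of untreated mini-bulk libraries. With these and the mitochondrial genes left out of the total as well, the sums were 5863 ± 307 in DASHed and 8573 ± 429.8 in untreated libraries.

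Other genes of mitosis and of S phase, from lists without the members, are set against the 9.84% of all genes that were higher and the 19.8% that were lower in mini-bulk. Of 38 other kinetochore and centromere genes, 29 were tested, 2 were higher and 10 lower (34.5%, median log2 fold change -1.14). Those of largest change were SGO2, the protector of centromeric cohesion (-4.08, SE 0.88, adjusted p = 0.00979), and ZWILCH, of the RZZ checkpoint complex (-3.43, SE 0.75, adjusted p = 0.0103). Of 34 other spindle and centrosome genes 31 were tested, 5 were higher and 5 lower (16.1% each, median -0.43), with NEDD1, which brings gamma-tubulin to the spindle, at -2.68 (adjusted p = 0.0108) and STIL, a centriole protein, at -2.39 (adjusted p = 0.00169). Of 10 other cytokinesis genes 2 were higher and 4 lower (40% lower, median -0.59), SEPT7 at -3.44 (adjusted p = 0.00206) and RHOA at -1.62 (adjusted p = 0.00126) showing the largest changes. Of 30 APC/C and mitotic entry genes 25 were tested, 4 were higher and 8 lower (32% lower, median -0.29), and the kinases MELK (-3.86, adjusted p = 0.00231) and WEE1 (-3.04, adjusted p = 0.00542) led. Of 10 MuvB and FOXM1 regulators 8 were tested, 2 were higher and 1 lower (12.5% lower, median -0.97), with RBBP4, a MuvB subunit, at -2.47 (adjusted p = 0.0028) and MYBL2, which encodes B-MYB, at 1.02 (adjusted p = 0.0195). Of the 41 S phase genes 36 were tested, 3 were higher and 13 lower (36.1% lower, median -0.75), with BLM at -2.25 (adjusted p = 0.0118) and ATAD2 at -2.22 (adjusted p = 0.00299). The shares that were lower thus lay above that of all genes in 4 of these lists and below it for the spindle and centrosome genes and for the MuvB and FOXM1 regulators. The shares that were higher were 16.1% for the spindle, 20% for the cytokinesis, 16% for the APC/C and 25% for the MuvB list. These lay above the 9.84% of all genes, while 6.9% (kinetochore) and 8.33% (S phase) lay below it. The median GC content of the lists ran from 43.4 to 47.2%. Of all genes tested, 44.0% were lower between 40 and 45% GC and 19.5% between 45 and 50% GC. Whether the lists differ from genes of like GC content was not tested.

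Some markers of the labelled cell type were present and others were not. Of 12 colon epithelial markers, KRT8, KRT18, KRT19, CDX2 and KLF5 had counts in all 12 libraries, and EPCAM in all but the DASHed library of cell 2. CDX1 had none, VIL1 and CEACAM5 had at most 1.1 counts in a library, and LGALS4 at most 4.4. CDH1 and ELF3 had counts in every mini-bulk library, but at most 4.0 and 2.3 counts in any library of cells 1 to 3. The list summed to 1160 to 5346 CPM outside rRNA in DASHed cells and 528.6 to 1863 in untreated cells, highest in cell 3 in both. In mini-bulk 3 of its 8 tested genes were higher (37.5%, against 9.84% of all genes) and 1 was lower (12.5%, against 19.8%). EPCAM at -2.12 (edgeR adjusted p = 0.0125) and KRT8 at 1.10 (adjusted p = 0.00143) led. The tested markers had a median GC content of 55.9%, and of all genes with at least 50% GC 18.8% were higher. The 6 leukocyte markers summed to at most 2.25 CPM outside rRNA in any library, with CD3E, CD14, LYZ and NKG7 at 0 throughout. The 8 fibroblast and endothelial markers summed to at most 42.6, mostly from COL1A1, with COL3A1, LUM and VWF at 0 throughout, and the 1 of them that was tested did not pass.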

How the data were processed

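RNA of all kinds was sequenced from HCT116 cells in 12 libraries. The authors deposited estimated counts for each gene without scaling. The submitters' processing notes name kallisto 0.46.2, and no source used here gives the build, annotation or strand setting. kallisto divides reads among the transcripts that could have produced them, so that 31.1 to 55.9% of a library's values above 0 are fractional. Values were rounded for tests. Of 57134 gene names, 57130 matched GENCODE v29 (GRCh38) after 52 names altered by a spreadsheet were restored. Coordinates, transcript length and GC content are from GENCODE v29 and promoters from RefSeq (GRCh38.p14). Members with at least 10% of their 31-base words or exonic bases shared with another gene are called uncertain (10 of 51). rRNA is the sum of 547 genes and pseudogenes, of which 87 had counts.

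The members and gene lists were chosen with earlier results of these data known. Mini-bulk counts were fitted in edgeR 4.0.16 under R 4.3.3 (quasi-likelihood F-test on treatment alone), with TMM factors (1.95 and 2.08 for DASHed, 0.444 and 0.555 for untreated libraries), filterByExpr to drop low genes, and p-values adjusted by Benjamini-Hochberg over all tested genes at 0.05. The script was tested on simulated data. Single cells carry no test. Alternatives were other scalings, DESeq2 1.42.0, no filter, a GC correction, a replicate block and leaving out each library. The rule for named genes took up to 24 members past the threshold by fold and the 2 of highest mean level in each role. It also took the 3 in each cell with the largest ratio to the median of the other cells, and members without a count in a whole group. From each other list it took the 2 largest changes. Members named beyond this rule were chosen after their values were seen.

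Replicate numbers recur in all groups, with no label on what they mark. For single cells, a DASHed and an untreated library with equal numbers had correlated deviations from the group mean (0.915 to 0.923), and with unequal numbers the correlation was -0.373 to -0.237, values that centring pushes below 0. Single cells were paired by number on this basis, with no support from the labels.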

Additional observations from a re-analysis of the deposited data

Results flagged for a closer look

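In each group of 4 cells a cell was singled out where its gap to the nearest other cell took most of the range of the group (Dixon's 95% critical value for 4 values). Sets of 4 cells were examined for each treatment, for every member with at least 10 counts in a cell and for the sums of the members, of the S phase genes and of the histones. Of these 102 sets, 21 held such a cell. The rate of about 5% that belongs to this value holds for normally distributed values. Levels with many zeros are not such values, so 21 of 102 cannot be set against that rate. A gene with counts in 1 cell alone meets the criterion by construction. CDC25C, NEK2 and CENPA, for example, were examined only because of the cell in which they are high. The share over all genes was not computed. Values are CPM outside rRNA.

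In both libraries of a number the same cell stood apart for CDC25C in cell 2 (72.9 DASHed, 23.9 untreated), NEK2 in cell 4 (21.7 DASHed, 12.5 untreated), CENPA in cell 3 (35.2 DASHed, 7.77 untreated), KIF2C in cell 4 (154.9 DASHed, 65.4 untreated) and ECT2 in cell 2 (59.3 DASHed, 276.8 untreated). The summed histone genes stood apart in cell 1 (18630 DASHed, 4626 untreated). In the DASHed library alone this held for CENPE (15.6) and CDCA3 (30.3) in cell 3 and for PTTG1 (28.9) in cell 4. In the untreated library alone it held for CENPF in cell 2 (304.9) and for KIF18A in cell 3 (20.5). It also held for CDK1 (21.2), KIF20B (13.2) and DLGAP5 (9.18) in the untreated library of cell 3. In DASHed cells these 3 genes had no cell that reached the minimum count. Their DASHed sets were not examined, so the treatments cannot be compared for them. In DASHed cells CDK1 had 7.37 and KIF20B 2.46 in cell 3, and both had 0 in the other cells. AURKB in cell 1 (25.4 in the untreated library) was the only low value among the cells singled out, against 59.1 to 63.6 in the other untreated cells.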

How the results depend on the processing

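In mini-bulk 29 members passed the threshold (6 higher, 23 lower, median log2 fold change -1.30). DESeq2 size factors gave 30, and no expression filter gave 32 of 51 tested, with 27 of the 29 still past the threshold. The replicate block, with 2 pairs whose deviations correlated at 0.469 and a number of unknown meaning, gave 38 (8 higher, 30 lower), and of all genes 2359 higher and 3047 lower, against 992 and 1998. The DESeq2 Wald test gave 18, 13 of them lower. Total counts alone gave 19 higher and 4 lower (median 0.72), and total counts outside rRNA gave 19 in all, 14 higher and 5 lower (median 0.18). The GC correction gave 0 higher and 3 lower, 3 in all (median -0.33), and the replicate block with GC correction gave 9, 3 higher and 6 lower (median -0.34). Leaving out 1 library, where the lone library is assumed to vary like the other group, gave 13 to 29 members in all, 0 to 8 higher and 10 to 22 lower, with medians of -1.45 to -0.88. Fewer genes were tested without an untreated library (34 or 35 members), and the cause of the other differences was not tested.

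Signs of single members turned with scaling. Per total counts alone the log2 fold changes were 0.56 for CCNA2, 0.13 for CKS1B, 0.01 for BUB1 (0.009), 0.45 for BUB1B, 0.72 for CENPF, 1.23 for KIF20A, 0.80 for TPX2, 0.79 for NUSAP1, 0.05 for DLGAP5 (0.048), 0.02 for CKAP2 (0.022), 0.58 for RACGAP1 and 1.07 for MKI67. Per total counts outside rRNA they were 0.03 for CCNA2 (0.028), 0.18 for CENPF, 0.70 for KIF20A, 0.27 for TPX2, 0.24 for NUSAP1, 0.05 for RACGAP1 (0.049) and 0.54 for MKI67. CENPF was at 0.12 with the GC correction and at 0.11 with the replicate block and GC correction.

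For the summed level, the highest over the lowest DASHed cell was 2.36 when scaled to all counts, 2.08 outside rRNA, mitochondrial genes and the 18S lincRNA genes, 2.04 without the 3 most abundant members (MKI67, CDC25B, TPX2) and 3.59 as a median of relative levels. The untreated cells gave 2.17, 3.24 (3.235) and 3.77 (3.774) for the last 3 of these. Leaving out a cell gave 1.40 to 2.24 in DASHed and 1.63 to 3.08 in untreated libraries. With at least 50 counts, 20 members (of 28) were highest in the same cell in both libraries. The members' median in single cells, relative to all genes (-0.51), was -0.002 with no minimum count and -0.24 with each gene's mean over the pairs taken first. It was -0.82 to -0.52 with a cell left out. The alternative that leaves mitochondrial and 18S lincRNA genes out of the total for this ratio was chosen after seeing the data. Depth limits what can be said of members with few counts: 22 to 37 of the 51 had at least 10 counts in a DASHed cell and 31 to 46 in an untreated cell.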
